A study of Mus musculus with 2 samples.

Results

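The immediate early genes Fos, Fosb, Jun, Junb, Jund, Egr1, Atf3, Ier2, Ier3 and Zfp36 were followed through the cell classes of mouse liver in single-cell RNA sequencing data (10x Genomics). These 10 genes of the 30406 genes present in both deposited matrices were matched by their Ensembl identifiers, and every gene had UMIs (unique molecular identifiers, each counting 1 captured transcript) in both libraries. The study compared 1 library of liver cells from healthy mice with 1 library from animals given carbon tetrachloride (CCl4), which hepatocytes turn into a toxic radical. All mice carried Col1a2CreER and Rosa26tdTomato, in which the Col1a2 promoter, active in mesenchymal cells, drives an inducible Cre that switches on a red reporter. Per the study's methods CCl4 was injected repeatedly in corn oil over several weeks into mice that were young adults at the start. By the same methods most CD45-positive cells, largely immune cells, were removed with magnetic beads, so the immune classes below are cells that remained. Both samples are labelled as whole liver cells, and the number of mice pooled in a library is not given. Livers of both groups were perfused and digested with collagenase at 3.7 U and pronase at 14 mg for each animal, and the cells were purified on a density gradient.

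Immediate early genes are transcribed within minutes of a stimulus without new protein synthesis, from promoters that are already occupied by factors such as SRF and CREB. FOS and JUN proteins pair as the transcription factor AP-1, EGR1 and ATF3 are further transcription factors, and Ier2, Ier3 and Zfp36 encode regulators of growth, survival and mRNA decay. In liver they respond to growth factors, cytokines and cell stress, and enzymatic digestion of tissue can itself induce them. No undigested control was analysed here, so the part of digestion in any level below was not tested.

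Promoters are shown for 4 of the genes, chosen to show different elements in their start regions. Whether these elements bear on the levels by cell class was not tested. The set of RefSeq promoter sequences used here (build GRCm38.p6) held 8 of the 10 genes, so the other promoters were not searched. The 250 bases before the transcription start of these 4, on the gene's own strand, are given 5′ to 3′ at chr12:85473640-85473889 (plus strand, Fos), chr8:84978749-84978998 (minus strand, Junb), chr4:95052223-95052472 (minus strand, Jun) and chr7:28379229-28379478 (minus strand, Zfp36). Capitals mark TGACG (the core of the cAMP response element) and TATAAA (the TATA box) in Fos, TGACG and CCAAT in Junb, TGACATCA (a variant AP-1 site) and CCAAT in Jun, and the CArG box, the element bound by SRF, in Zfp36.
Fos: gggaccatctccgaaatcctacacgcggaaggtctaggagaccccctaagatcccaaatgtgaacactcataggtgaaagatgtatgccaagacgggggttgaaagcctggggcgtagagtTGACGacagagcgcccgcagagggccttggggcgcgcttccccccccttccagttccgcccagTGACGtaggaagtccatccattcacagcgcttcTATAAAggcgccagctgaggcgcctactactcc
Junb: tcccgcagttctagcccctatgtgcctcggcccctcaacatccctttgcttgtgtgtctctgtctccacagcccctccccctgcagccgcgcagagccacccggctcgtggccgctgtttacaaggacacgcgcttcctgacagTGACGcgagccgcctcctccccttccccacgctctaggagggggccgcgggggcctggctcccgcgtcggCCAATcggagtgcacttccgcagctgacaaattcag
Jun: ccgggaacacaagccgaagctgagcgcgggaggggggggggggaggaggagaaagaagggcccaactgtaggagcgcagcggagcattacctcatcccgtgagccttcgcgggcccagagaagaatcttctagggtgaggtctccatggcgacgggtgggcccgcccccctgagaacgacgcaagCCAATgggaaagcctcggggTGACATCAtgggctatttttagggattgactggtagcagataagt
Zfp36: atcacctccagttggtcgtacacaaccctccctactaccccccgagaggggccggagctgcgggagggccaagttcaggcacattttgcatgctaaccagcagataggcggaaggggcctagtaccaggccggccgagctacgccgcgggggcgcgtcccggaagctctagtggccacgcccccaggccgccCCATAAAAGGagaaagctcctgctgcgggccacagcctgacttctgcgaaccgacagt

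Both strands of the 250-base windows were searched, and the motifs could overlap each other. TGACG was present in 4 of the 8 promoters (Fos, Fosb, Junb and Atf3) and in 17.9% of 27025 mouse promoters of the same length. TATAAA was present in 1 (Fos) and in 13.0% of all promoters. The CArG box was present in 1 (Zfp36) and in 1.40% of all, and TGACATCA in 1 (Jun) and in 3.02% of all. The canonical AP-1 site TGACTCA was in none of the 8 windows and in 4.43% of all promoters. GGGCGG was in 6 of the 8 windows and 32.9% of all promoters, and CCAAT in 3 of the 8 (Jun, Junb and Ier3) and 34.5% of all. These matches describe letters in a window, and no binding was measured.

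After removal of doublets and of cells with over 30% mitochondrial UMIs, 5602 healthy and 7314 CCl4 cells were used, which held a median of 6783.5 and 11876 UMIs, and 10 cell barcodes occurred in both libraries. Joint clustering without the 10 genes gave 30 clusters, of which 22 received a class name from marker genes and are written here as "-like". Unnamed cells made up 3.34% of healthy and 30.9% of CCl4 cells. In classes with at least 50 cells the healthy library held 3550 endothelial-like, 1268 cholangiocyte-like, 325 hepatocyte-like and 235 mesothelial-like cells. The CCl4 library held 2523 mesenchymal-like, 886 mesothelial-like, 637 endothelial-like, 478 smooth muscle-like, 109 T and NK cell-like, 178 macrophage and monocyte-like, 71 B and plasma cell-like, 69 neutrophil-like and 61 plasmacytoid dendritic cell-like cells, and no hepatocyte-like cell, although cluster 23 (330 CCl4 cells) carried hepatocyte markers but too few UMIs to be named. Levels are UMIs of a gene per 1000000 UMIs of the class (CPM), with exact Poisson 95% intervals that cover counting error only. With 1 library per group no test of a difference was possible.

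In the healthy library cholangiocyte-like cells (bile duct epithelium) had the highest summed level of the 10 genes, at 13247 CPM [13194, 13301]. Endothelial-like cells followed at 9163 CPM [9121, 9205], mesothelial-like cells, which cover the liver surface, at 6308 CPM [6229, 6388], and hepatocyte-like cells at 1408 CPM [1365, 1453]. No intervals of neighbouring classes overlapped, and the highest class was 9.41 times the lowest. All 10 genes were at least 2-fold higher in cholangiocyte-like than in hepatocyte-like cells and none was lower, while 48% of the 6151 genes compared were at least 2-fold higher and 13.3% at least 2-fold lower. The median log2 ratio was 3.58 over the 10 genes and 0.93 over all genes compared. With the 50 most abundant genes left out of the totals, the summed levels were 17609 CPM in cholangiocyte-like and 2293 CPM in hepatocyte-like cells.

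Hepatocyte-like cells came from 2 clusters of unlike quality. Cluster 1 (50 cells, median 41319 UMIs, 18.9% mitochondrial UMIs) had 1595 CPM of the 10 genes, and cluster 2 (275 cells, median 2363 UMIs, 1.07% mitochondrial) had 1015 CPM. Both were thus below every other healthy class with at least 50 cells. With cells over 10% mitochondrial UMIs left out before clustering, the name hepatocyte-like fell on 177 other cells (0 of those above, 113 endothelial-like and 50 unnamed here) with 6892 CPM. No liver cell class is known to lack these genes, so no class gives a background for free RNA in droplets. The level of a gene in a class is an upper limit to its free RNA in that class only, since this share can differ between classes. Albumin RNA, a hepatocyte product, stood at 219 to 5553 CPM in the other healthy classes and at 12.8 to 48.0 CPM in the CCl4 classes with at least 50 cells.

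**Figure D1:**
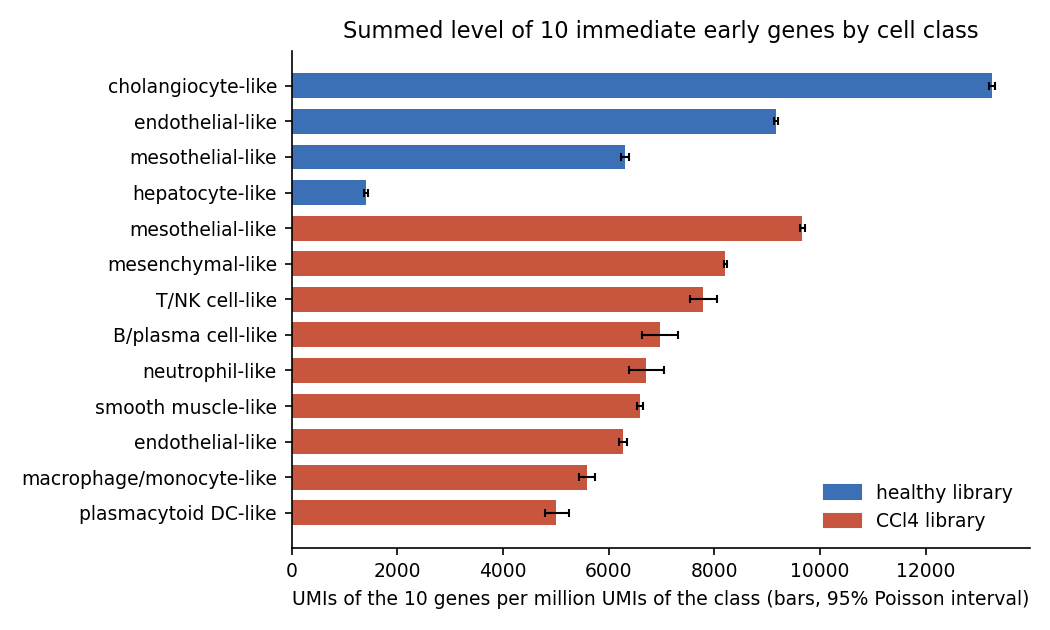
Summed level of the 10 immediate early genes, as CPM of the class, for the 4 healthy (blue) and 9 CCl4 (red) classes with at least 50 cells. Bars give the level, whiskers the exact Poisson 95% interval. Levels ran from 1408 to 13247 CPM in the healthy library and from 5010 to 9664 CPM in the CCl4 library.

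Among the FOS genes of the healthy library, Fos stood at 2251 CPM in cholangiocyte-like, 1623 in mesothelial-like, 1440 in endothelial-like and 175 in hepatocyte-like cells. Fosb, whose protein pairs with JUN proteins like FOS, was highest in endothelial-like cells (888 CPM [875, 901]), above cholangiocyte-like (764), mesothelial-like (704) and hepatocyte-like cells (38.0). By pooled CPM the order of classes therefore differed between the 2 FOS genes, and none of the neighbouring intervals overlapped. With every cell weighing the same, Fosb was at 738 CPM in cholangiocyte-like and 726 in endothelial-like cells, so its highest class changed. Endothelial-like cells then still exceeded mesothelial-like cells in Fosb (726 against 566) but not in Fos (1142 against 1335).

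The JUN genes kept 1 order in healthy liver, with cholangiocyte-like, endothelial-like, mesothelial-like and hepatocyte-like cells from high to low. Jun, the founding partner in AP-1, had 2921, 2078, 1087 and 263 CPM in that order. Junb, a JUN protein with weaker activating power, had 2094, 1496, 483 and 160 CPM. Jund, which many resting cells express, varied least of the 3, from 1568 to 174 CPM, and had 1264 and 1069 CPM in endothelial-like and mesothelial-like cells.

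Egr1, a zinc-finger transcription factor, had 1269 CPM in cholangiocyte-like cells, and its levels in mesothelial-like (581 [558, 606]) and endothelial-like cells (574 [564, 585]) could not be told apart. Atf3, a stress-induced factor, separated the classes more widely, with 855 CPM in cholangiocyte-like, 283 in mesothelial-like, 77.8 in endothelial-like and 49.6 in hepatocyte-like cells. Between cholangiocyte-like and endothelial-like cells Atf3 differed 10.98-fold [10.4, 11.6]. Only Egr1 (2.21-fold), Ier2 (2.24-fold) and Atf3 were at least 2-fold higher there and none at least 2-fold lower, against 16.1% and 20.1% of the 7331 genes compared.

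Ier2, a nuclear regulator, had 708 CPM in cholangiocyte-like, 316 in endothelial-like, 126 [115, 138] in mesothelial-like and 105 [92.9, 117] in hepatocyte-like cells, and the last pair overlapped. Ier3, a regulator of apoptosis, was at 312, 272, 158 and 7.96 CPM in the same order, the widest span of the set (39.3-fold). Its hepatocyte-like level rested on 22 UMIs and pooled 1.07 CPM in cluster 1 with 22.5 CPM in cluster 2, so the span depends on this pooling. Zfp36 encodes tristetraprolin, which destabilises cytokine mRNAs. It was highest in endothelial-like cells (756 CPM), followed by cholangiocyte-like (505), hepatocyte-like (216 [199, 234]) and mesothelial-like cells (192 [179, 207]). By pooled CPM it was thus the 1 gene of the 10 not lowest in hepatocyte-like cells, although the last pair of intervals overlapped. This hepatocyte-like level pooled 281 CPM in cluster 1 (50 cells) with 78.9 CPM in cluster 2 (275 cells). Cluster 2 alone was below mesothelial-like cells. With every cell weighing the same, hepatocyte-like cells had the lowest Zfp36 level of the healthy classes with at least 50 cells.

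In the CCl4 library the summed levels spanned a narrower range, from 9664 CPM [9615, 9712] in mesothelial-like cells to 5010 CPM [4787, 5240] in plasmacytoid dendritic cell-like cells, a 1.93-fold difference. Mesenchymal-like cells, which include the collagen-producing stellate cells, had 8208 CPM. T and NK cell-like cells had 7790, B and plasma cell-like 6970, neutrophil-like 6713, smooth muscle-like 6599, endothelial-like 6270 and macrophage and monocyte-like cells 5584 CPM. B and plasma cell-like, neutrophil-like and smooth muscle-like cells could not be ordered, since their intervals overlapped. With every cell weighing the same, macrophage and monocyte-like cells (4678 CPM) were below plasmacytoid dendritic cell-like cells (5088 CPM), and neutrophil-like cells reached 9011 CPM. T and NK cell-like cells (8013 CPM) then exceeded mesenchymal-like cells (7749 CPM). Without the 50 most abundant genes, neutrophil-like (13280 CPM), T and NK cell-like (12110) and B and plasma cell-like cells (11616) exceeded mesenchymal-like cells (11292). Mesothelial-like cells (13494) stayed highest and plasmacytoid dendritic cell-like cells (7048) lowest there. Of the 10 genes 7 were at least 2-fold higher in mesothelial-like than in plasmacytoid dendritic cell-like cells and none at least 2-fold lower, beside 23.4% and 19.2% of the 6101 genes compared.

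The classes differed in which genes made up this sum. Junb was highest in T and NK cell-like (2675 CPM [2532, 2825]) and neutrophil-like cells (2517 [2322, 2724]), reached 1749 in B and plasma cell-like cells and was lowest in plasmacytoid dendritic cell-like cells (272 [222, 330]). It made up 34.3% of the UMIs of the 10 genes in T and NK cell-like cells, 37.5% in neutrophil-like cells and 5.43% in plasmacytoid dendritic cell-like cells. Macrophage and monocyte-like cells (17.6%) were close to mesenchymal-like (17.4%), smooth muscle-like (17.4%) and endothelial-like cells (18.3%) in this share, and mesothelial-like cells had 9.66%. Jun had another order in these cells, with 1561 CPM in plasmacytoid dendritic cell-like, 1282 in T and NK cell-like and 184 [134, 246] in neutrophil-like cells, the lowest class.

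Jund was highest in B and plasma cell-like cells (1819 CPM [1648, 2002]), followed by T and NK cell-like (1430) and plasmacytoid dendritic cell-like cells (1421). It was lowest in macrophage and monocyte-like cells (581 [535, 629]), whose interval overlapped that of neutrophil-like cells (651 [554, 760]). Fos had its highest level in mesothelial-like cells (1934 CPM) and its lowest in T and NK cell-like cells (723 [650, 803]), with macrophage and monocyte-like cells at 1298. The lowest Fos interval overlapped those of neutrophil-like (786 [679, 905]) and plasmacytoid dendritic cell-like cells (813 [725, 909]). Fosb was at 679 CPM in mesenchymal-like and 677 in mesothelial-like cells, which could not be told apart, and at 135 in neutrophil-like cells.

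Egr1 was highest in the stromal and surface cells, with 1239 CPM in mesothelial-like, 1047 in mesenchymal-like and 747 in smooth muscle-like cells. It was at 55.5 CPM [34.3, 84.8] in plasmacytoid dendritic cell-like cells, 22.3-fold under the highest class. Atf3 stood apart in mesothelial-like (565 CPM) and macrophage and monocyte-like cells (404 [366, 445]), while the other 7 classes lay between 78.5 and 138 CPM with overlapping neighbours.

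Ier2, Ier3 and Zfp36 were all highest in neutrophil-like cells, at 479 CPM [396, 574], 589 CPM [497, 694] and 1048 CPM [923, 1184]. The Ier2 interval overlapped that of mesothelial-like cells (393 CPM). Ier3 had 0 UMIs in the 71 B and plasma cell-like cells, which allows up to 13.1 CPM (3 counts), and 1 UMI in plasmacytoid dendritic cell-like cells (2.64 CPM [0.0669, 14.7]). Zfp36 was lowest in T and NK cell-like cells (299 CPM [252, 352]) and at 649 CPM in both endothelial-like and macrophage and monocyte-like cells. Its lowest interval overlapped those of B and plasma cell-like (345 [273, 429]) and plasmacytoid dendritic cell-like cells (367 [309, 433]).

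**Figure D2:**
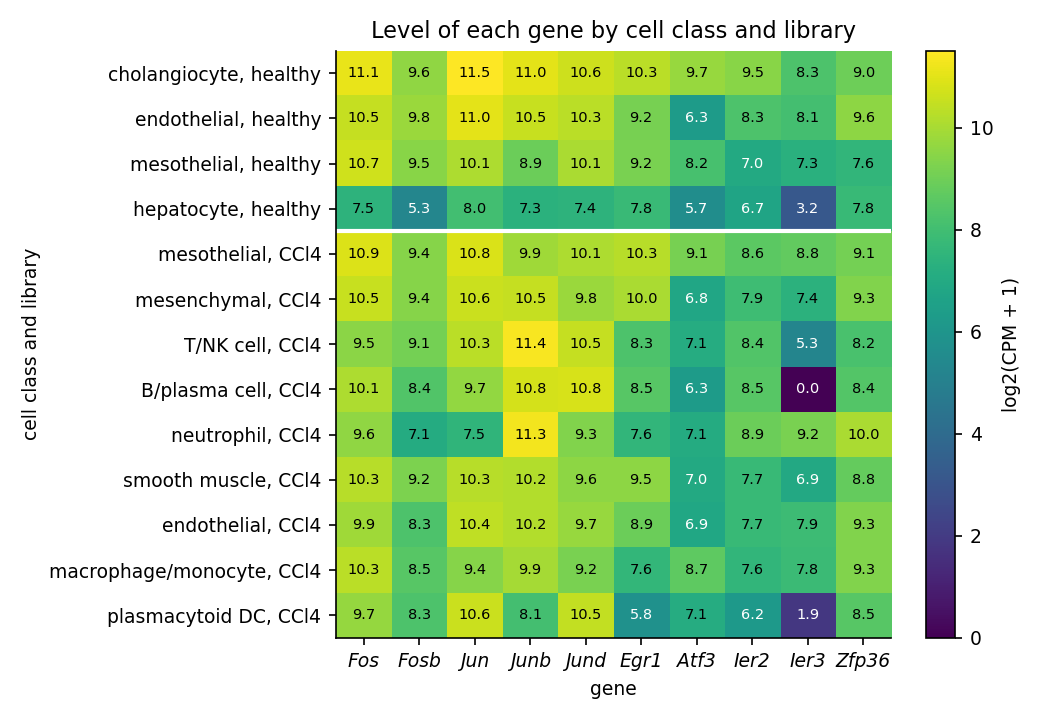
Level of each gene, as log2(CPM + 1), in the 4 healthy and 9 CCl4 classes with at least 50 cells. Columns are genes and rows classes, and colours are to be compared down a column, since levels of different genes were not corrected for length or capture. Hepatocyte-like cells are the lowest healthy row for 9 of the 10 genes, and the exception, Zfp36, depends on pooling clusters 1 and 2. Ier3 is near 0 in B and plasma cell-like and plasmacytoid dendritic cell-like cells.

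Depth differed between classes, so the share of cells with at least 1 UMI of a gene was also taken at 2000 UMIs per cell, averaged over all possible thinnings of each cell and with Clopper-Pearson 95% intervals. This left out 578 of 3550 healthy endothelial-like cells, 125 of 325 hepatocyte-like cells, 61 of 178 macrophage and monocyte-like cells and 21 of 69 neutrophil-like cells. At that depth Fos was found in 85.6% [83.5, 87.5] of healthy cholangiocyte-like, 72.7% of mesothelial-like, 65.2% of endothelial-like and 16.8% [11.9, 22.8] of hepatocyte-like cells. Of the 10 genes only Fosb and Zfp36 had another order of healthy classes by share than by level. Fosb was found in more cholangiocyte-like (63.4% [60.6, 66.0]) than endothelial-like cells (57.2% [55.4, 58.9]), and Zfp36 in 24.6% [19.2, 30.7] of mesothelial-like and 18.2% [13.1, 24.2] of hepatocyte-like cells, where the intervals overlapped.

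In the CCl4 library the Fos shares at 2000 UMIs ran from 53.5% [43.2, 63.6] of T and NK cell-like to 78.0% [69.4, 85.2] of macrophage and monocyte-like cells. The latter share covers 117 deeper cells, and without thinning Fos was found in 68.0% of all 178 cells of that class. Junb was found in 92.8% of B and plasma cell-like, 92.4% of neutrophil-like and 90.7% of T and NK cell-like cells and in 36.1% [24.2, 49.4] of plasmacytoid dendritic cell-like cells. Egr1, by contrast, was found in 76.4% of mesothelial-like and 8.2% [2.73, 18.1] of plasmacytoid dendritic cell-like cells. Atf3 was found in 60.3% of healthy cholangiocyte-like, 41.5% of CCl4 mesothelial-like and 42.0% of macrophage and monocyte-like cells, and in 9.74% of healthy endothelial-like cells. Ier3 was found in 0% of B and plasma cell-like cells, with an upper limit of 5.13% over 70 cells.

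Endothelial-like and mesothelial-like cells were the classes with at least 50 cells in both libraries. They describe how the genes differed between injured and healthy liver within a class. Injury, library and the version of the software that made each matrix cannot be told apart here. Different clusters held each class in the libraries. Endothelial-like cells were mostly clusters 3, 7, 5, 0, 10 and 17 in healthy and clusters 8, 17 and 10 in CCl4 liver, and mesothelial-like cells were cluster 11 in healthy and cluster 24 in CCl4 liver.

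In endothelial-like cells the summed level was lower in the CCl4 library, at 6270 against 9163 CPM (ratio 0.684 [0.676, 0.693]). Fosb had 318 against 888 CPM (ratio 0.358 [0.338, 0.378]) and was the only gene of the 10 at least 2-fold lower, and none was at least 2-fold higher, against 9.53% lower and 3.23% higher of the 6588 genes compared. Atf3 was the 1 gene with a ratio over 1, at 116 against 77.8 CPM (1.49 [1.34, 1.65]). Fos (0.641), Jun (0.646), Jund (0.664), Ier2 (0.671) and Junb (0.766) lay together under 1. The ratios of Egr1 (0.848), Zfp36 (0.858) and Ier3 (0.874 [0.817, 0.935]) were nearer to 1, and that of Ier3 was 1.01 with TMM scaling. The median log2 ratio of all genes compared was itself −0.23 and that of the 10 genes −0.48. The log2 ratios of Egr1 (−0.24), Zfp36 (−0.22) and Ier3 (−0.19) were near that of all genes. With TMM scaling, which brought the median of all genes to −0.02, the ratio of the sum was 0.790.

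Cluster 17, led by Nts, Wnt9b and Vwf, was the endothelial-like cluster with at least 50 cells of each library (82 healthy and 77 CCl4 cells). Its summed level was 7528 CPM in healthy and 7796 CPM in CCl4 cells, with a ratio of 1.04 [0.996, 1.08] that included 1. Within it Egr1 was higher in CCl4 cells (817 against 228 CPM, 3.58-fold [2.98, 4.33]) and so was Atf3 (2.66-fold [1.93, 3.70]). These were the 2 genes at least 2-fold higher, and none was at least 2-fold lower, against 9.7% and 13.4% of the 6574 genes compared. Zfp36 (1.54 [1.33, 1.78]) and Junb (1.12 [1.01, 1.23]) were also over 1. Fosb (0.698), Ier3 (0.743), Jun (0.798) and Jund (0.851 [0.760, 0.953]) had ratios under 1 whose intervals did not include 1, and the intervals of Fos and Ier2 included it. The lower CCl4 sum of the whole class was thus not seen in this cluster.

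In mesothelial-like cells the summed level was higher in the CCl4 library, at 9664 against 6308 CPM (ratio 1.53 [1.51, 1.55]). Ier2 was at 393 against 126 CPM (3.11-fold [2.84, 3.42]), Zfp36 at 543 against 192 CPM (2.82-fold [2.62, 3.05]), Ier3 at 435 against 158 CPM (2.76-fold [2.54, 3.004]) and Egr1 at 1239 against 581 CPM (2.13-fold [2.04, 2.23]). These 4 genes were at least 2-fold higher and none was at least 2-fold lower, while 6.54% of the 6225 genes compared were at least 2-fold higher and 11.6% at least 2-fold lower. Atf3 (1.99) and Junb (1.93) lay just inside the 2-fold limit. Jun had a ratio of 1.69 and Fos of 1.19. Fosb (0.961 [0.921, 1.002]) and Jund (1.03) had intervals that included 1. The median log2 ratio was 0.97 over the 10 genes and −0.07 over all genes compared.

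**Figure D3:**
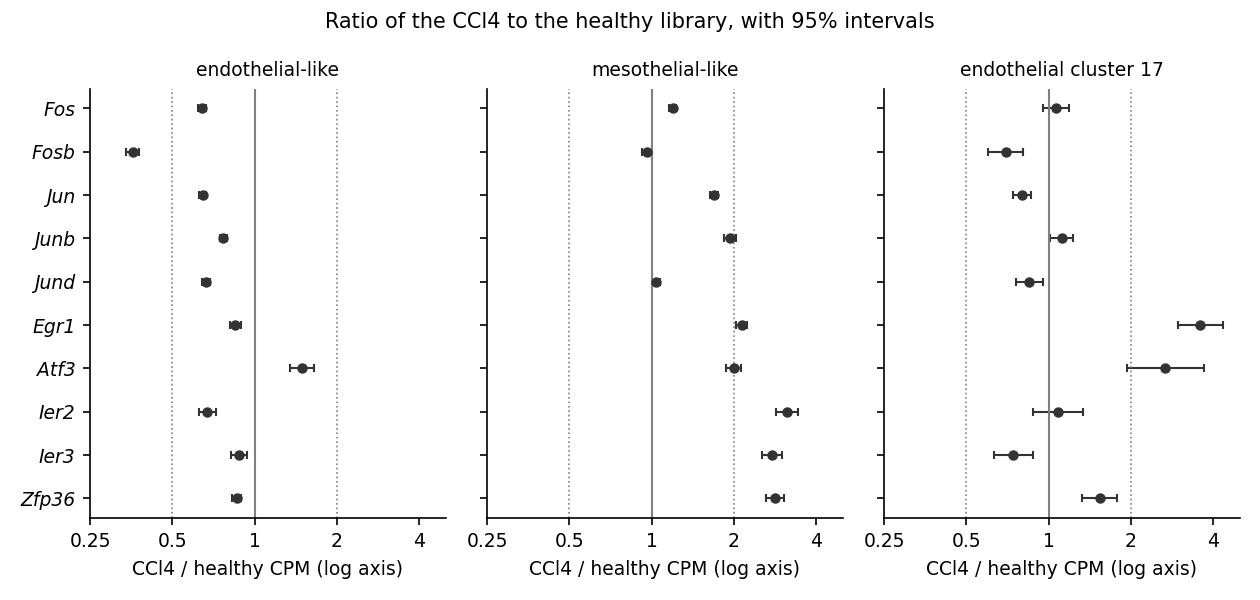
Ratio of the CCl4 to the healthy library for each gene (points, log axis) with exact conditional binomial 95% intervals, in endothelial-like cells, mesothelial-like cells and endothelial cluster 17. The solid line marks a ratio of 1 and dotted lines 2-fold differences. In endothelial-like cells 9 genes lie left of 1 (Ier3 not with TMM scaling), and in mesothelial-like cells 9 genes lie right of 1.

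The share of cells with a UMI at 2000 UMIs was compared between the libraries too. Fos was found in 57.0% [52.8, 61.1] of CCl4 and 65.2% [63.4, 66.9] of healthy endothelial-like cells, and in 75.2% [72.2, 78.0] of CCl4 and 72.7% [66.5, 78.4] of healthy mesothelial-like cells, where the intervals overlapped. Egr1 was found in 76.4% [73.4, 79.1] of CCl4 and 56.8% [50.1, 63.3] of healthy mesothelial-like cells. Fosb was found in 33.5% of CCl4 and 57.2% of healthy endothelial-like cells.

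Within most classes the level of the 10 genes was lower in cells with a higher share of mitochondrial UMIs, a measure of cell quality. Healthy endothelial-like cells had 10573 CPM at under 5% mitochondrial UMIs, 5134 CPM at 5 to 10% and 3491 CPM at 10 to 30%. CCl4 endothelial-like cells had 6650 CPM [6559, 6741] and 5158 CPM [5020, 5298] in the first 2 of these ranges, so the libraries differed at under 5% and could not be told apart at 5 to 10% (healthy interval [5064, 5205]). Mesothelial-like cells had 10402 CPM in the CCl4 and 7073 in the healthy library at under 5%, and 7507 and 4483 CPM at 5 to 10%, so the higher CCl4 level held in both ranges. Cholangiocyte-like (14534 and 11835 CPM), mesenchymal-like (8853 and 4932) and smooth muscle-like cells (7338 and 4060) had lower levels at 5 to 10% than at under 5% too. Hepatocyte-like cells went the other way, with 950 CPM [882, 1021] at under 5% and 1568 CPM [1513, 1625] at 10 to 30%. So did the unnamed CCl4 cluster 18, with 2629 CPM at 5 to 10% and 6787 CPM at 10 to 30%, and CCl4 cluster 25 was nearly level, at 9384 and 9140 CPM in the first 2 ranges. The part of cell quality in the class levels was not tested.

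**Figure D4:**
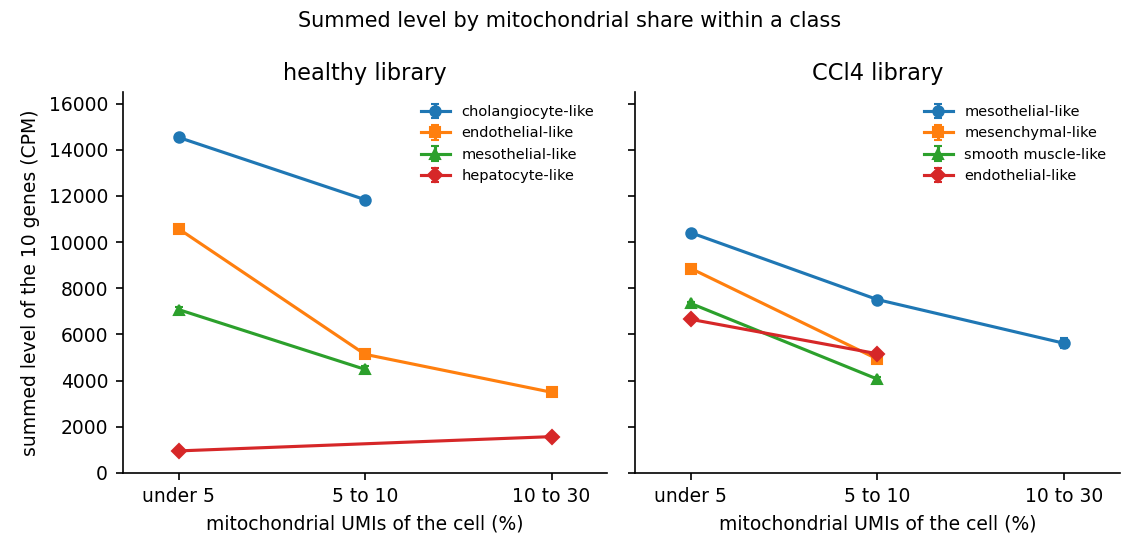
Summed level of the 10 genes (CPM, exact Poisson 95% intervals) in cells with under 5%, 5 to 10% and 10 to 30% mitochondrial UMIs, for classes with at least 50 cells in at least 2 of these ranges. In the healthy library endothelial-like cells run from 10573 to 3491 CPM, and in the CCl4 library mesothelial-like cells run from 10402 to 5615 CPM. For hepatocyte-like cells the line joins the outer ranges, whose cells are mostly of different clusters.

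Clusters inside a class also differed. Among healthy endothelial-like clusters the summed level was 14682 CPM [14493, 14872] in cluster 10, led by Gja5, Ly6c1 and Vwf, above 10115 in cluster 7, 9223 in cluster 3, 7787 in cluster 0 and 7528 in cluster 17. Cluster 10 had 2422 CPM of Fos, 3431 of Jun and 2444 of Junb. Cluster 5, with a median of 1811.5 UMIs and 10.1% mitochondrial UMIs per cell, had 3662 CPM in all and 427 CPM of Fos. In the CCl4 library endothelial-like cluster 8 had 5861 CPM. The mesenchymal-like clusters 14 and 15 had 7902 and 8329 CPM, and cluster 27 (87 cells), whose leading genes include endothelial genes, had 10038 CPM.

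Some unnamed clusters held high levels of the 10 genes. Healthy cluster 13, with cholangiocyte markers and 18.7% mitochondrial UMIs, had 11693 CPM, and CCl4 cluster 25, led by Serpinb2 and Enpp2, had 9378 CPM. CCl4 cluster 9, led by cell cycle genes, had 5174 CPM. The lowest was CCl4 cluster 23, with hepatocyte markers and a median of 898.5 UMIs, at 832 CPM [754, 916]. In the small groups, the 23 CCl4 cholangiocyte-like cells had 19466 CPM [18866, 20079] and the 12 healthy macrophage and monocyte-like cells 10199 CPM.

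Cells of 1 class varied widely at equal depth. Thinned once to 2000 UMIs, healthy endothelial-like cells held a median of 12 UMIs of the 10 genes, with a 10th percentile of 2 and a 90th of 38. The corresponding values were 25 (7 to 45) in cholangiocyte-like, 9 (2 to 22) in healthy mesothelial-like, 15 (3 to 38.9) in CCl4 mesothelial-like and 13 (2 to 33) in mesenchymal-like cells. Hepatocyte-like cells held a median of 1 (0 to 5). The Fano factor of the sum, its variance over its mean, was 13.4 in healthy and 10.0 in CCl4 endothelial-like cells and 5.67 in healthy and 10.4 in CCl4 mesothelial-like cells, where 1 is the value of pure counting.

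Single genes showed the same spread. In 7 of the 8 classes with at least 150 cells at that depth, all 10 genes had a Fano factor over the median gene, and in hepatocyte-like cells 6 of the 7 genes with at least 0.1 UMIs per cell did. Jun (4.65) and Fos (4.35) in healthy endothelial-like cells exceeded 99.6% of the 3779 genes measured there, whose median was 1.04. In hepatocyte-like cells Jund, at 0.973, was the gene under the median of 1.11. Genes of higher mean can have a higher Fano factor, so these percentages describe abundance as well as spread.

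**Figure D5:**
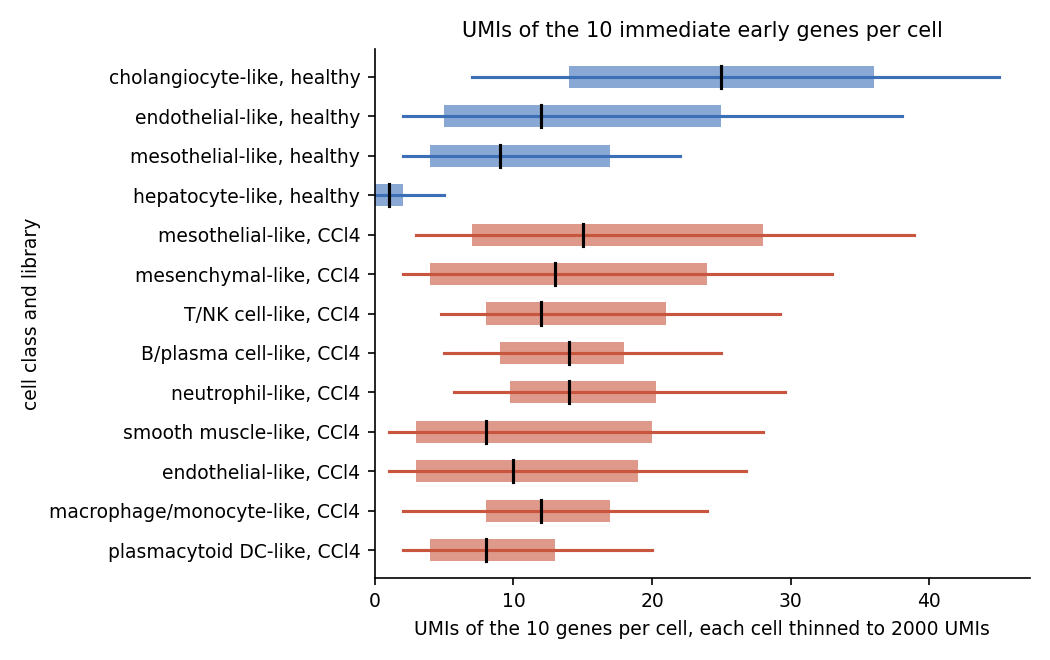
UMIs of the 10 genes per cell after each cell was thinned to 2000 UMIs, for the 13 classes with at least 50 cells. Lines run from the 10th to the 90th percentile, boxes from the 25th to the 75th, and black marks give the median. Medians run from 1 in hepatocyte-like to 25 in cholangiocyte-like cells of the healthy library.

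The genes varied together from cell to cell. Across healthy endothelial-like cells at 2000 UMIs all 45 pairs of genes had a Pearson correlation over 0, with a median of 0.353 and the highest for Fos and Junb (0.578 across 2972 cells). The median pair was at 0.353 in smooth muscle-like, 0.321 in CCl4 mesothelial-like, 0.295 in mesenchymal-like, 0.274 in cholangiocyte-like and 0.163 in healthy mesothelial-like cells. In healthy mesothelial-like cells 43 of 45 pairs were over 0 and 18 over 0.2. Fos and Jun had 0.568 in smooth muscle-like and 0.443 in healthy mesothelial-like cells. Cells of 1 library are not independent, and cells of different mitochondrial share are pooled in these values.

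Across the 13 class and library groups, Fos followed the mean of the other 9 genes most closely (Pearson r = 0.856 on log2(CPM + 1)), then Fosb (0.761), Ier2 (0.652), Egr1 (0.640) and Junb (0.624). Zfp36 (0.458) and Jund (0.485) followed it least. The groups of 1 library share its depth and processing, so these values describe the 13 groups only. The median UMIs per cell of a group correlated with the summed level at 0.444. Of 6822 other genes, those most like the mean of the 10 genes were 1810030O07Rik (0.923), Eif4g3 (0.919), Capns1 (0.889), Ppp2r1a (0.870) and Ccdc34 (0.870). All of these had their lowest level in hepatocyte-like cells, as the mean of the 10 genes did.

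Further early transcription factors and early response regulators were taken from lists of 17 and 22 genes. In cholangiocyte-like against hepatocyte-like cells 8 of the 10 factors that could be compared and 16 of 19 regulators were at least 2-fold higher, and 0 and 1 at least 2-fold lower, against 48% and 13.3% of all genes compared, with median log2 ratios of 1.71 and 2.24 beside 0.93 over all genes. The factors Klf6 (548 against 15.2 CPM, 36.1-fold) and Maff (58.5 against 1.81, 32.3-fold) and the growth-arrest gene Gadd45b (244 against 8.32, 29.4-fold) had the largest ratios. Against endothelial-like cells, cholangiocyte-like cells had more Errfi1, a feedback inhibitor of EGF receptors (284 against 21.9 CPM), and more of the matricellular gene Ccn1 (999.98 against 93.1 CPM). Of the regulators, which include both genes, only 4 of 20 were at least 2-fold higher and 5 lower. Of the factors 4 of 12 were at least 2-fold higher and 4 lower, against 16.1% and 20.1% of all genes compared. The median log2 ratios were 0.01 for regulators and −0.17 for factors, beside −0.08 over all genes. In the CCl4 library Ccn1 had 547 CPM in mesothelial-like cells and 2 UMIs in plasmacytoid dendritic cell-like cells.

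Between the libraries these lists did not follow the 10 genes in every class. In endothelial-like cells 3 of 12 factors and 2 of 19 regulators were at least 2-fold higher and 2 of each at least 2-fold lower, against 3.23% and 9.53% of all genes compared, with median log2 ratios of 0.16 and −0.12 beside −0.23 over all genes. None of 8 upstream signalling genes passed 2-fold in either direction. Myc, a growth factor-induced regulator, was at 83.4 CPM in CCl4 and 5.42 CPM in healthy cells (15.4-fold [12.4, 19.3]). Klf2, an endothelial factor induced by blood flow, was at 890 against 2099 CPM (0.424), and Gadd45g had a ratio of 0.415. In cluster 17 the counts were 4 of 11 factors and 4 of 19 regulators higher, and 2 and 1 lower, against 9.7% and 13.4% of all genes compared (medians 0.59 and 0.27, all genes −0.09). There Tnfaip3 was 10.2-fold [4.76, 26.2] higher and Dusp5 had 43 UMIs in CCl4 and 0 in healthy cells, while Ccn1 (0.0556) and Cebpd (0.286) were lower.

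In mesothelial-like cells 6 of 21 regulators and 3 of 11 factors were at least 2-fold higher, with 2 regulators and 3 factors at least 2-fold lower, against 6.54% higher and 11.6% lower of all genes compared, and the median log2 ratios were 0.53 and 0.34 beside −0.07 over all genes. Tnfaip3, an inhibitor of NF-kappaB signalling, was at 62.6 against 2.86 CPM (21.9-fold [12.2, 44.0]), and Sgk1, a stress-regulated kinase gene, had a ratio of 0.337. Of the upstream signalling genes 1 of 8 was at least 2-fold lower in this class, namely Srf, whose protein binds the CArG box, at 11.9 against 33.5 CPM.

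Heat shock genes, which tissue handling can also induce, were measured beside these results. Their summed level was 9713 CPM in CCl4 and 5880 CPM in healthy mesothelial-like cells, where 5 of 12 were at least 2-fold higher and none lower (6.54% and 11.6% of all genes). It was 6041 against 4565 CPM in endothelial-like cells, where 3 of 12 were higher and none lower (3.23% and 9.53% of all genes). In cluster 17 it was 5679 against 5319 CPM, with 2 of 12 higher and 1 lower (9.7% and 13.4% of all genes). The sums were therefore higher in CCl4 cells in both classes, whereas the sum of the 10 early genes was higher in 1 and lower in the other. Hspa1a was 8.06-fold higher in mesothelial-like and Hspa1b 4.64-fold higher in endothelial-like cells, and these near-identical copies can share reads. Across the 13 groups the heat shock sum correlated with the sum of the 10 genes at 0.144, the early response regulators at 0.725 and the early transcription factors at 0.591. Whether handling differed between the libraries was not tested.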

How the data were processed

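Single liver cells were measured in 1 healthy and 1 CCl4 library. The authors deposited UMI counts per gene and cell barcode, not normalized. Per the file headers the matrices came from Cell Ranger 3.1.0 (healthy) and 6.0.1 (CCl4). The submitters' processing notes name mm10 and GRCh38, and the mouse identifiers in the files fit the former only. The healthy library held 6297 cells and 51122846 UMIs, the CCl4 library 8460 cells and 97611831 UMIs, and only counting error is known, since each group had 1 library. Nothing says how many mice were pooled.

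Cells with at least 500 UMIs, 200 genes and at most 30% mitochondrial UMIs were kept, and 277 healthy and 487 CCl4 doublets were removed by Scrublet score. Both libraries were clustered together with scanpy 1.11.5 (2000 variable genes without the 10 genes and the lists of early and heat shock genes, 30 principal components, Leiden resolution 1, seed 1). Clusters were named from at least 3 markers of 13 classes, each at least 2-fold enriched and in at least 10% of cells, and names can differ from the study's.

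UMIs summed per class gave CPM with exact Poisson intervals, and ratios had exact conditional binomial intervals. Genes with a mean of at least 20 CPM were compared, and a ratio of at least 2 or at most 0.5 was counted. The steps were tested on simulated data. TMM factors came from edgeR 4.0.16 (R 4.3.3). Genes were named by a rule: all 10 genes, the listed genes with the most extreme ratios, and the 5 most like genes. The members and lists were chosen with earlier results of these data known. The matrices hold no columns of the authors' own comparisons.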

Additional observations from a re-analysis of the deposited data

Results flagged for a closer look

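In CPM, the ratio of the CCl4 to the healthy library lay on opposite sides of 1 in endothelial-like and mesothelial-like cells. This held for the sum of the 10 genes and for 7 of the genes, with intervals that did not include 1 in either class. The difference was not tested, since each group had 1 library. The sum had a ratio of 0.684 in endothelial-like and 1.53 in mesothelial-like cells. In the same order the ratios were 0.641 and 1.19 for Fos, 0.646 and 1.69 for Jun, and 0.766 and 1.93 for Junb. Egr1 had 0.848 and 2.13, Ier2 0.671 and 3.11, Ier3 0.874 (1.01 with TMM scaling) and 2.76, and Zfp36 0.858 and 2.82. In endothelial-like cells the log2 ratios of Egr1 (−0.24), Zfp36 (−0.22) and Ier3 (−0.19) were near the median of all genes compared (−0.23). These genes were thus not set apart from genes in general in that class. Jund had 0.664 and 1.03, but the latter interval included 1. In the endothelial cluster 17, which both libraries share, the ratios of Fos (1.06), Junb (1.12), Egr1 (3.58), Ier2 (1.08) and Zfp36 (1.54) were over 1, with intervals that included 1 for Fos and Ier2, while those of Jun (0.798) and Ier3 (0.743) were under 1.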

How the results depend on the processing

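No paired analysis was possible because each group had 1 library, and for the same reason no replicate could be left out. The endothelial-like ratio of the summed genes (0.684) was 0.704 with no mitochondrial limit, 0.670 with a limit of 10%, with doublets kept or with at least 2000 UMIs, 0.668 with early genes allowed as variable genes, 0.764 with every cell weighing the same, 0.789 without the 50 most abundant genes, 0.790 with TMM scaling and, chosen after seeing the data, 0.641 without cluster 5 and 1.04 in cluster 17 alone, where 2 genes instead of 0 were at least 2-fold higher and 0 instead of 1 lower. In cluster 17 alone Fos (1.06), Junb (1.12), Egr1 (3.58), Ier2 (1.08) and Zfp36 (1.54) had ratios on the other side of 1, although the intervals of Fos and Ier2 included 1, and so had Ier3 with equal cell weights (1.02), without the 50 genes (1.01) and with TMM (1.01). The mesothelial-like ratio (1.53) was 1.56 with at least 2000 UMIs, 1.71 with equal cell weights, 1.60 without the 50 genes and 1.64 with TMM.

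The share of cells with a Fos UMI at 1000 UMIs, at 5000 UMIs and without thinning was 48.2%, 88.5% and 71.8% in healthy endothelial-like, 41.7%, 78.0% and 70.8% in CCl4 endothelial-like, 57.8%, 88.8% and 87.2% in healthy mesothelial-like and 62.6%, 87.4% and 92.0% in CCl4 mesothelial-like cells, so the mesothelial-like values stood in the other order at 5000 UMIs. Cholangiocyte-like over endothelial-like cells (1.45) gave 1.47 with no mitochondrial limit, 1.40 with 10%, 1.39 with doublets, 1.41 with early genes or at least 2000 UMIs, 1.72 with equal weights and 1.54 without the 50 genes. Mesothelial-like over hepatocyte-like cells (4.48) gave 0.935 with the limit of 10%, where other cells took that name, 3.90 with doublets, 5.22 with equal weights and 3.66 without the 50 genes. Mesothelial-like over mesenchymal-like cells (1.18) gave 1.22, 1.23, 1.23, 1.24, 1.21, 1.21, 1.20 and 1.20 with no limit, 10%, doublets, 10 principal components, early genes, at least 2000 UMIs, equal weights and without the 50 genes. Macrophage and monocyte-like over plasmacytoid dendritic cell-like cells (1.11) gave 1.19 with 10%, 1.18 with at least 2000 UMIs and 0.919 with equal weights. Apart from the cases whose construction shows it, the cause was not tested.

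With 10 principal components neutrophil-like cells had 12767 CPM, CCl4 endothelial-like cells were under 50 and no plasmacytoid dendritic cell-like class formed, so no ratio was given there. Of 210 ratios of single genes under alternatives 143 stayed within the interval of the main ratio and 59 left it. Another 8, whose main interval excluded 1, lay on the other side of 1. Crossings by ratios whose main interval included 1 are not among these 8. Mesothelial-like Fosb (0.961) was such a ratio. With every cell weighing the same it was at 688 CPM in CCl4 and 566 CPM in healthy cells. The hepatocyte-like level ran from 1044 to 6892 CPM over the alternatives. A smooth muscle-like level could be given in only 4 settings, counting the main setting, where most classes had 8. It ran from 6157 to 7995 CPM. Cluster 12, which made up this class, carried 10 mesenchymal and 5 smooth muscle markers, so its name and rank depend on the clustering. Precision is limited by the single library of each group and by the rare classes of 61 to 109 cells.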
